A study of Cavia porcellus with 72 samples.

Results

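The serotonin and dopamine receptors described here are 9 genes chosen by symbol, the serotonin receptors HTR1A, HTR1D, HTR2A, HTR2B, HTR2C, HTR4 and HTR7 and the dopamine receptors DRD1 and DRD5. Of these, 7 were listed in the RNA tables of all 3 generations, among 11446 genes listed in all 3 tables. HTR2B, a Gq-coupled serotonin receptor, and DRD5, a D1-like dopamine receptor, were in none of the 3 tables and were not analysed here. No adrenergic receptor was among the 9 genes, and the adrenergic receptors are given below with the other genes of the monoamine pathway.

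RNA was sequenced from the right hippocampus of juvenile female Dunkin-Hartley guinea pigs on postnatal day 40, as 36 libraries from powdered bulk tissue. The pregnant F0 females had been given either saline vehicle (control) or, in 3 courses between gestational days 40 and 61, the synthetic glucocorticoid (sGC) betamethasone at 1 mg/kg. F1 animals were the offspring of these pregnancies, so they were exposed in utero, and F2 and F3 animals descended from them through males mated with females from outside the experiment. The groups held 6 control and 5 sGC libraries in F1, 6 and 6 in F2, and 6 and 7 in F3. The F1 sires came from independent mothers.

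Serotonin reaches the hippocampus in axons of the raphe nuclei and dopamine in axons of the midbrain, so the receptors are made in hippocampal cells while the enzymes that make the transmitters are mostly made elsewhere. All 9 genes encode receptors that act through G proteins. HTR1A and HTR1D couple to Gi, which lowers cAMP and, for HTR1A in pyramidal neurons, opens inwardly rectifying potassium channels. HTR2A and HTR2C couple to Gq and phospholipase C, and HTR4, HTR7 and DRD1 couple to Gs or its relative Golf and raise cAMP. Stress hormones and serotonin receptors, HTR1A above all, have long been studied together in this tissue.

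Library totals ranged from 13507449 to 19767033 reads counted in genes. Levels are given as counts per 1000000 reads (CPM) after TMM scaling of library sizes, and they were not divided by transcript length, so levels are compared between libraries of 1 gene and never between genes. By the chi-square per degree of freedom of their counts over genes, F1 sGC replicate 4 stood apart from the other F1 sGC libraries (17.3 to 28.7, with 5.22 to 11.3 among the others). F3 sGC replicate 5 was close to 5 of the 6 other F3 sGC libraries (2.10 to 3.22, with 4.14 to 16.5 among pairs without it). Without the first, 342 genes were called in F1 in place of 237, and without the second, 288 in F3 in place of 573, with 0 receptors called in either. Excitatory neuron markers were present in every library: the summed level of 5 genes, CAMK2A, SLC17A7, NRGN, NEUROD2 and NEUROD6, lay between 7978 and 11949.9 CPM. Lists of dentate granule, CA1 and CA3 genes summed to 229 to 322 CPM, 275 to 445.5 CPM and 218 to 331.6 CPM. Of the markers of raphe and midbrain monoamine neurons, TH, SLC6A3, DBH and FEV were in no table, and the serotonin transporter gene SLC6A4 reached at most 1.43 CPM. TPH2, also of this list, was listed in F1 and F2 but not in F3, and it did not pass the filter on low counts.

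No receptor of the set passed the test in any generation. With edgeR's quasi-likelihood test and Benjamini-Hochberg adjustment over all genes tested (threshold 0.05), 0 of 7 were called in F1, where 2.08% of 11377 genes were called, 0 of 6 in F2, where 0.0% of 11414 were called, and 0 of 6 in F3, where 5.04% of 11359 were called. At an unadjusted p below 0.05 the counts were 0, 0 and 1 receptor, against 19.6%, 6.64% and 21.1% of all genes. The likelihood ratio test of edgeR and DESeq2 also called 0 receptors in each generation. With library totals in place of TMM, 142 genes were higher and 92 lower in F1 (185 and 52 with TMM) and 305 higher and 274 lower in F3 (247 and 326), and still 0 receptors were called. In F2, where no gene was called, 758 genes had an unadjusted p below 0.05, the likelihood ratio test called 6 and DESeq2 called 12.

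In F1, 4 of 7 receptors had a log2 fold change (sGC against control) above 0 and the median was 0.03, with 51.7% of all genes below 0. In F2 the split was 3 and 3, with a median of -0.0028, and 50.3% of all genes lay below 0. In F3 all 6 receptors tested had estimates below 0, with a median of -0.12 beside 0.00 over all genes, of which 48.3% lay below 0. These 6 estimates are not independent observations. Within F3, after subtraction of group means, Pearson's r between pairs of them ran from -0.52 (HTR1A and HTR2A) to 0.80 (HTR2A and HTR2C). Of the other monoamine receptors in F3, the 5 serotonin receptors had estimates below 0 (HTR1B at -0.0010), both dopamine receptors had estimates above 0, and the adrenergic receptors split 3 and 3, with 0 called. Interneuron and astrocyte markers differed between the same F3 groups. The summed level of 6 interneuron genes ranged from 662 to 740.1 CPM in control and from 570.2 to 673 CPM in sGC libraries. GAD1 and GAD2 were called lower, as were 2.87% of all genes. The summed level of 5 astrocyte genes ranged from 6814 to 7493 CPM and from 7610 to 9266 CPM. SLC1A2 was called higher, as were 2.17% of all genes. The part of these cell types in the receptor values was not tested, and in bulk tissue fewer cells of a type and less RNA per cell cannot be told apart.

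**Figure D1:**
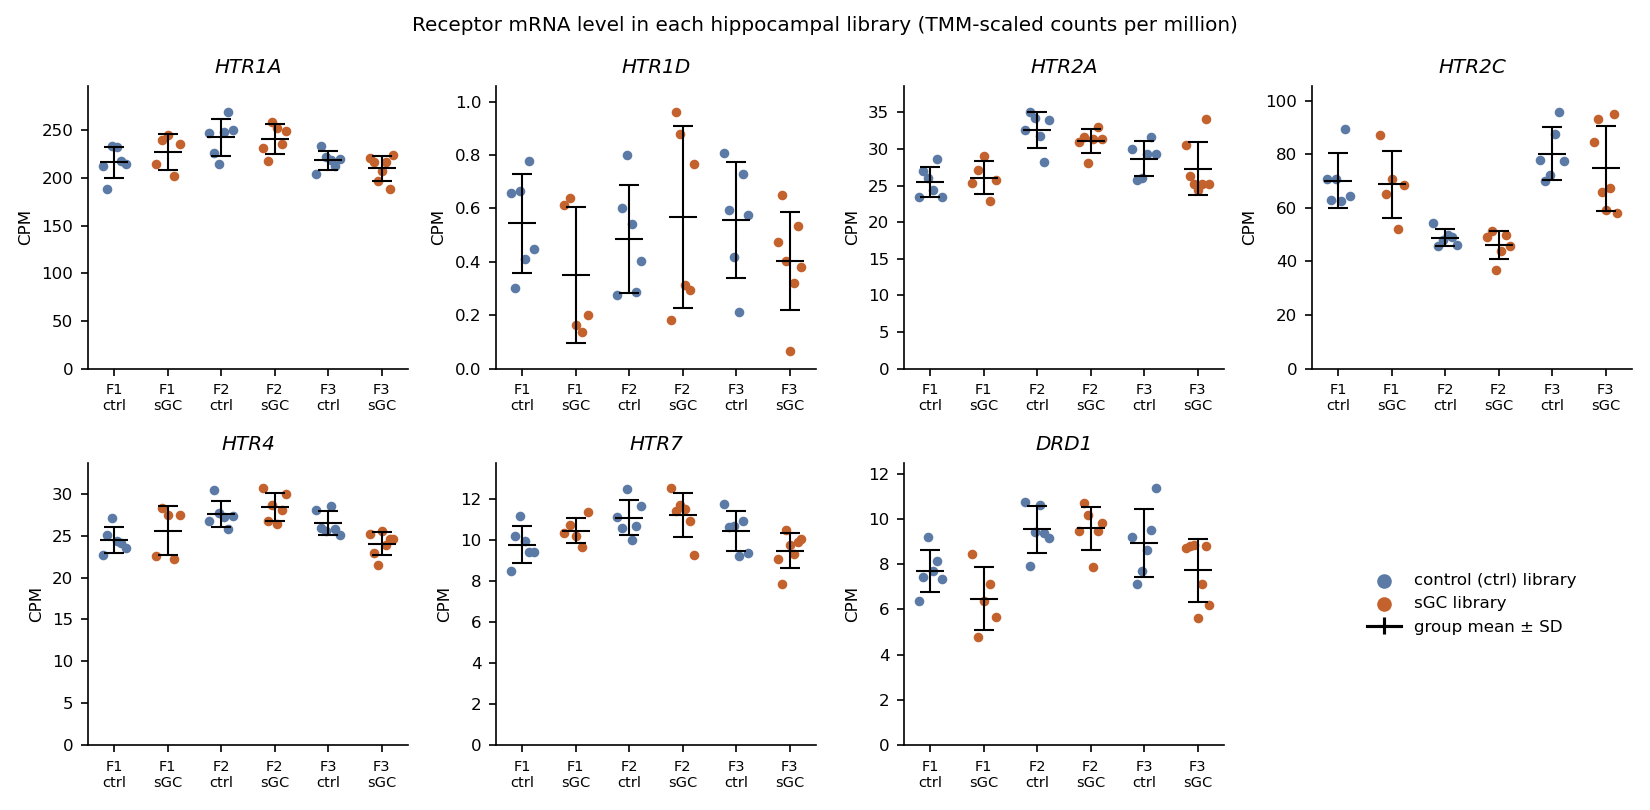
Levels of the 7 receptors in each of the 36 libraries, in TMM-scaled counts per 1000000 reads (CPM) on linear axes from 0. Each point is 1 library, in control (blue) and sGC (orange) groups of F1, F2 and F3, and the bars are group means ± SD. The control and sGC groups of a generation overlap for every receptor, and HTR2C is lower in the F2 libraries than in the F1 and F3 controls.

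HTR1A, the main Gi-coupled serotonin receptor of hippocampal pyramidal neurons, was counted with 2938 to 4492 reads per library, with group means from 210.2 CPM in F3 sGC to 243 CPM in F2 control. F1 controls ranged from 189 to 233 CPM with a median of 216, and the 5 F1 sGC libraries had 214, 240, 245, 202 and 235 CPM. F2 controls ranged from 215 to 269.6 with a median of 247 and F2 sGC libraries from 217 to 259 with a median of 243. F3 controls ranged from 204 to 233 with a median of 219 and F3 sGC libraries from 188.4 to 224 with a median of 217. The groups overlapped in each generation. The log2 fold changes were 0.07 (95% interval -0.07 to 0.21) in F1, -0.01 (-0.12 to 0.10) in F2 and -0.06 (-0.15 to 0.03) in F3, with edgeR adjusted p of 0.567, 0.981 and 0.494. Of the receptors, HTR1A had the narrowest intervals in F3, and all 3 intervals lay within 0.21 of 0 on the log2 scale.

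HTR1D, a Gi-coupled receptor found on axon terminals, was close to the limit of counting, with 1 to 15 reads in each library. Its level was 0.302 to 0.778 CPM in F1 controls and 0.61, 0.64, 0.16, 0.14 and 0.20 CPM in the 5 F1 sGC libraries. The log2 fold change in F1 was -0.60 ± 0.41 (SE; adjusted p = 0.440), and 2 of the 5 sGC libraries lay within the control range. It ranged from -0.95 without sGC replicate 2 to -0.40 without sGC replicate 3, and was -0.22 without libraries 32 to 36. The spread between libraries was a CV of 33.8% in F1 control and 72.2% in F1 sGC, where counting alone gives 32.4% and 40.8%. In F2 and F3 the gene did not pass the filter on low counts, and without the filter the log2 fold changes were 0.19 in F2 and -0.40 in F3 (adjusted p of 0.940 and 0.556). Levels there ranged from 0.183 to 0.962 CPM in F2 and from 0.0652 to 0.809 CPM in F3.

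HTR2A, the Gq-coupled receptor through which serotonergic hallucinogens act, had 339 to 640 reads per library. It ranged from 23.4 to 28.6 CPM in F1 controls (median 25.2), and the F1 sGC libraries had 25.3, 27.2, 29.1, 22.9 and 25.8 CPM. In F2 the ranges were 28.3 to 35.1 CPM in control (median 33.3) and 28.2 to 33.04 in sGC (median 31.4). In F3 they were 25.7 to 31.7 CPM (median 29.4) and 24.4 to 34.1 CPM (median 25.3). Of the 7 F3 sGC libraries, 5 lay outside the control range, 4 of them below it and 1, at 34.1 CPM, above it, so the sGC group was more spread than the controls (CV 13.3% against 8.12%). The log2 fold changes were 0.03 ± 0.07, -0.07 ± 0.05 and -0.07 ± 0.08 (SE) in F1, F2 and F3, with adjusted p of 0.836, 0.796 and 0.655.

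HTR2C, a Gq-coupled receptor that in many mammals is strongly made in the choroid plexus epithelium, varied more between libraries of a group in F1 and F3 (CV 12.2% to 21.1%) than in F2 (6.45% and 11.5%). F1 controls had 62.6 to 89.5 CPM with a median of 67.6, and F1 sGC libraries had 87.1, 65.2, 70.8, 52.2 and 68.4 CPM. F2 controls had 45.9 to 54.5 CPM (median 48.5) and F2 sGC libraries 36.8 to 51.4 (median 47.3). F3 controls had 70.1 to 95.9 CPM (median 77.8) and F3 sGC libraries 58.0 to 95.01 (median 67.5). Of the F3 sGC libraries, 4 lay below every control, from 58.0 to 67.5 CPM, and the other 3 lay within the control range, from 84.5 to 95.01 CPM. The spread between libraries reached a CV of 21.1% in F3 sGC, where counting alone gives 2.85%. The log2 fold changes were -0.03 ± 0.12 in F1, -0.08 ± 0.07 in F2 and -0.10 ± 0.12 in F3 (SE), with adjusted p of 0.906, 0.815 and 0.681. The 95% intervals, -0.28 to 0.22, -0.23 to 0.06 and -0.34 to 0.15, all included 0.

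The variation of HTR2C ran against the summed level of 5 excitatory neuron genes. After subtraction of each group's mean, log2 HTR2C correlated with the log2 summed level of the 5 excitatory genes with Pearson's r = -0.81 and Spearman's rho = -0.76 over 36 libraries, given as a description since the libraries share depth and tissue composition. Without the 2 libraries farthest on the marker axis r was -0.77. Within generations r was -0.90 in F1, -0.27 in F2 and -0.90 in F3. Most of the summed level was CAMK2A (r = -0.80 with HTR2C), while NEUROD6 and SLC17A7 gave -0.27 and -0.33. Lists of CA1, dentate granule and CA3 genes gave r of 0.05, -0.03 and -0.27 with HTR2C. Within generations these ran from -0.45 to 0.63, from -0.73 to 0.36 and from -0.79 to 0.21. HTR2C also varied with 8 striatal projection neuron genes (r = 0.60), with interneuron genes (0.52, but 0.12 within F2), with the choroid plexus genes FOLR1 and KL (0.52) and with oligodendrocyte genes (0.51, but -0.09 within F2). The sum of the 5 excitatory genes also ran against HTR2A (r = -0.58), DRD1 (-0.50) and HTR1D (-0.43). Within F1, F2 and F3 r was -0.31, -0.32 and -0.78 for HTR2A and -0.27, -0.34 and -0.67 for DRD1. For HTR1D, which had few reads, it was -0.62, -0.18 and -0.47.

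**Figure D2:**
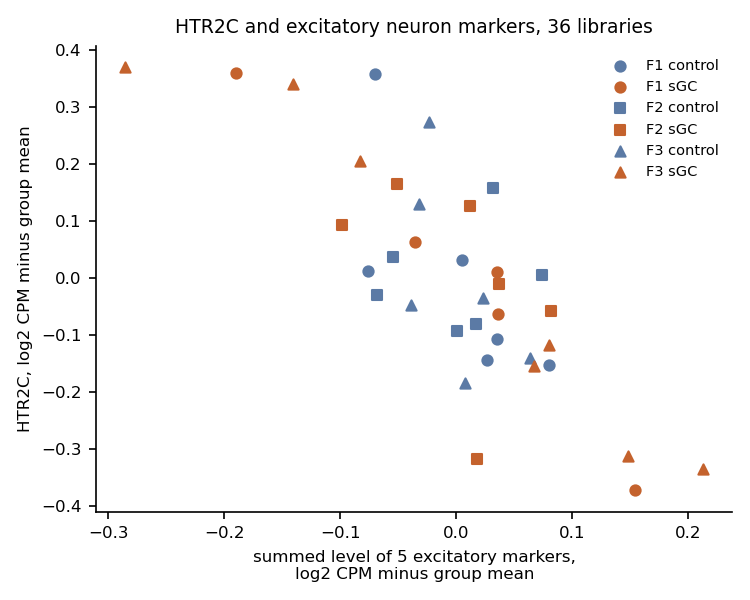
HTR2C level of each of the 36 libraries against the summed level of 5 excitatory neuron markers, both as log2 CPM minus the mean of the library's group. Circles, squares and triangles are F1, F2 and F3, blue is control and orange sGC; libraries with higher marker levels have lower HTR2C, with r = -0.81, and the F2 squares follow this least.

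In F2 the choroid plexus could be followed with TTR, the transthyretin gene and its most abundant marker, which only the F2 table listed. TTR ranged from 0.943 to 658 CPM in F2 while HTR2C stayed between 36.8 and 54.5 CPM. The 3 libraries with the most TTR, control 1 with 459 CPM and sGC 2 and sGC 5 with 658 and 633 CPM, had 54.5, 51.4 and 49.97 CPM of HTR2C. At the other end, sGC 3 had 0.943 CPM of TTR and 36.8 CPM of HTR2C, the lowest of all libraries. With the sum of FOLR1 and KL, HTR2C had r = 0.78 over the 12 F2 libraries.

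HTR4, a Gs-coupled receptor that promotes cAMP signalling in hippocampal neurons, came nearest to the threshold. In F1 it ranged from 22.7 to 27.2 CPM in control (median 24.2), and the sGC libraries had 22.6, 28.3, 27.5, 22.3 and 27.4 CPM, some above and some below all controls. In F2 the ranges were 25.8 to 30.5 CPM (median 27.3) and 26.4 to 30.7 CPM (median 28.4). In F3 controls ranged from 25.1 to 28.6 CPM with a median of 25.9, and sGC libraries from 21.6 to 25.6 CPM with a median of 24.6. All 7 F3 sGC libraries were below the control mean and 5 of the 7 were below every control, and the other 2 were inside the control range. The F3 log2 fold change was -0.14 ± 0.05 (SE; 95% interval -0.25 to -0.04), a ratio of 0.906, with an unadjusted p of 0.0110 and an adjusted p of 0.110 in edgeR's test. Over the alternatives tried this adjusted p ranged from 0.083 to 0.217. In F1 and F2 the estimates were 0.07 ± 0.07 and 0.04 ± 0.05, with adjusted p of 0.646 and 0.878.

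HTR7, the other Gs-coupled serotonin receptor of the set, had 133 to 219 reads per library, and its spread between libraries was close to that of counting. It ranged from 8.51 to 11.2 CPM in F1 controls (median 9.70), and the F1 sGC libraries had 10.3, 10.7, 10.2, 9.68 and 11.4 CPM, 4 of 5 above the control mean. F2 ranged from 10.02 to 12.5 CPM in control and 9.28 to 12.5 CPM in sGC. F3 ranged from 9.25 to 11.8 CPM in control (median 10.6) and 7.84 to 10.5 CPM in sGC (median 9.78), with 6 of 7 sGC libraries below the control mean and 2 below every control. The log2 fold changes were 0.10 ± 0.08, 0.02 ± 0.08 and -0.14 ± 0.08 (SE), with adjusted p of 0.519, 0.975 and 0.327.

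DRD1, the D1 dopamine receptor, is abundant in striatal projection neurons and is also made in the hippocampus. F1 controls ranged from 6.36 to 9.22 CPM (median 7.57) and the F1 sGC libraries had 8.44, 4.803, 6.39, 7.11 and 5.68 CPM, with 2 of the 5 below every control and 4 of the 5 below the control mean. F2 ranged from 7.94 to 10.8 CPM in control and 7.86 to 10.7 CPM in sGC, almost the same range. F3 ranged from 7.12 to 11.4 CPM in control (median 8.91) and from 5.61 to 8.86 CPM in sGC (median 8.72), and all 7 sGC libraries were below the control mean of 8.92. The log2 fold changes were -0.25 ± 0.14 in F1 (95% interval -0.54 to 0.04), 0.00 ± 0.09 in F2 and -0.20 ± 0.13 in F3 (-0.47 to 0.06), with adjusted p of 0.314, 0.995 and 0.379. The F1 value was -0.16 without sGC replicate 2, and the F3 value -0.12 without control replicate 6. With 85 to 178 reads per library, counting alone gave a CV of 8.24% to 9.67%. Beside it, the summed level of 8 striatal genes ranged from 272 to 296 CPM in F1 control and from 263 to 283 CPM in F1 sGC libraries, with 3 of the 8 estimates above 0, and 1 of the 8, the tachykinin gene TAC1, was called in F1, lower at -0.46 ± 0.09 (adjusted p = 0.0291; 0.457% of all genes were called lower). After subtraction of group means, DRD1 and the summed striatal genes had r = 0.39 over 36 libraries. Within F1, F2 and F3 r was 0.08, 0.53 and 0.56. The part of striatal tissue in the DRD1 values was not tested.

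**Figure D3:**
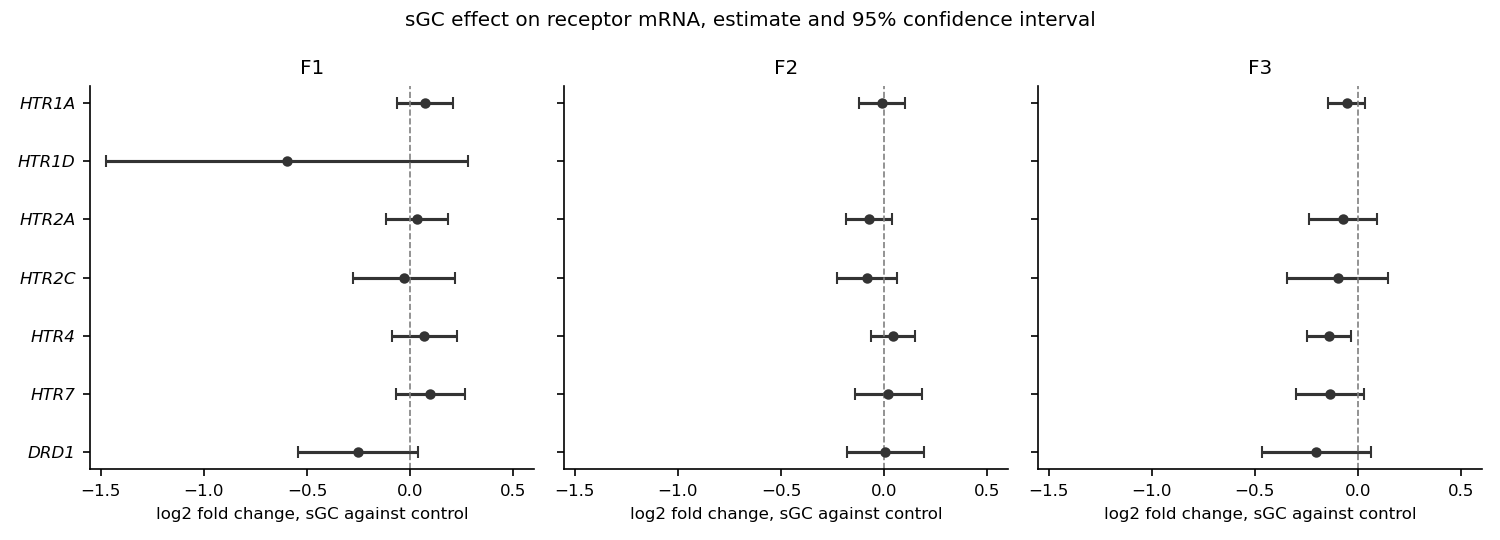
Log2 fold change of sGC against control for each receptor tested in F1, F2 and F3 (points) with 95% confidence intervals (bars); 0 is no difference. HTR1D was tested in F1 alone and has the widest interval, and in F3 the HTR4 interval, -0.25 to -0.04, excludes 0 before adjustment for the number of genes.

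The question of whether the sGC effect differed between generations was tested as an interaction over all 36 libraries and 11390 genes, and 0 of 7 receptors passed in any of the 3 contrasts. Over all genes 0.29% were called between F2 and F1, 0.0% between F3 and F1, and 0.0% between F3 and F2, with 16.8%, 13.1% and 9.08% at an unadjusted p below 0.05. These shares were not stable: calls between F2 and F1, 33 genes, ran from 0 without F2 control 2 to 219 without F2 sGC 6 and reached 273 with DESeq2, and calls between F3 and F1 reached 64 with DESeq2, 431 without libraries 32 to 36 and 454 without F1 sGC 4. Of the receptors, 0, 2 and 1 had an unadjusted p below 0.05 in the same order, and the likelihood ratio test and DESeq2 also called 0. For HTR4 the F3 effect minus the F1 effect was -0.22 ± 0.08 (SE; adjusted p = 0.260, or 0.056 to 0.451 over the alternatives) and the F3 effect minus the F2 effect -0.18 ± 0.08 (adjusted p = 0.528). For HTR7 the F3 effect minus the F1 effect was -0.24 ± 0.11 (adjusted p = 0.336). DRD1 gave 0.04 ± 0.18 between F3 and F1, with a 95% interval from -0.31 to 0.40. These are edgeR quasi-likelihood values.

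Control libraries also differed between generations, and for these no test was made because each generation has its own table and generation cannot be told apart from how its table and libraries were made. All F2 control libraries lay below every F1 and F3 control for HTR2C, with F2 to F1 and F2 to F3 ratios of means of 0.697 and 0.610. That holds for 7.79% of 11161 genes, and the reverse, F2 above every F1 and F3 control, for 11.8%. The other 5 receptors compared overlapped, with F2 to F1 ratios between 1.12 for HTR1A and 1.28 for HTR2A. Ordered by control mean, HTR2C was lowest in F2 and highest in F3, with F1 and F3 overlapping. HTR1A, HTR2A, HTR4, HTR7 and DRD1 were each lowest in F1 and highest in F2, and for each of these the neighbours overlapped.

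Among the other monoamine receptors, the adrenergic receptors ADRA1A and ADRB1 shared this pattern. ADRA1A, a Gq-coupled noradrenaline receptor, ranged from 18.4 to 25.96 CPM in F1 controls, from 10.2 to 13.1 in F2 controls and from 21.4 to 27.6 in F3 controls, and the 6 F2 sGC libraries, 10.1 to 13.7 CPM, were as low as their controls. ADRB1, a Gs-coupled noradrenaline receptor, ranged from 6.00 to 7.91, from 2.62 to 4.44 and from 6.39 to 9.57 CPM in the 3 control groups. Their F2 to F1 ratios were 0.508 and 0.504. HTR1E, a Gi-coupled serotonin receptor that mice and rats lack, had a ratio of 0.657 with overlap, since 1 F2 control had 8.68 CPM and the lowest F3 control 8.56.

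**Figure D4:**
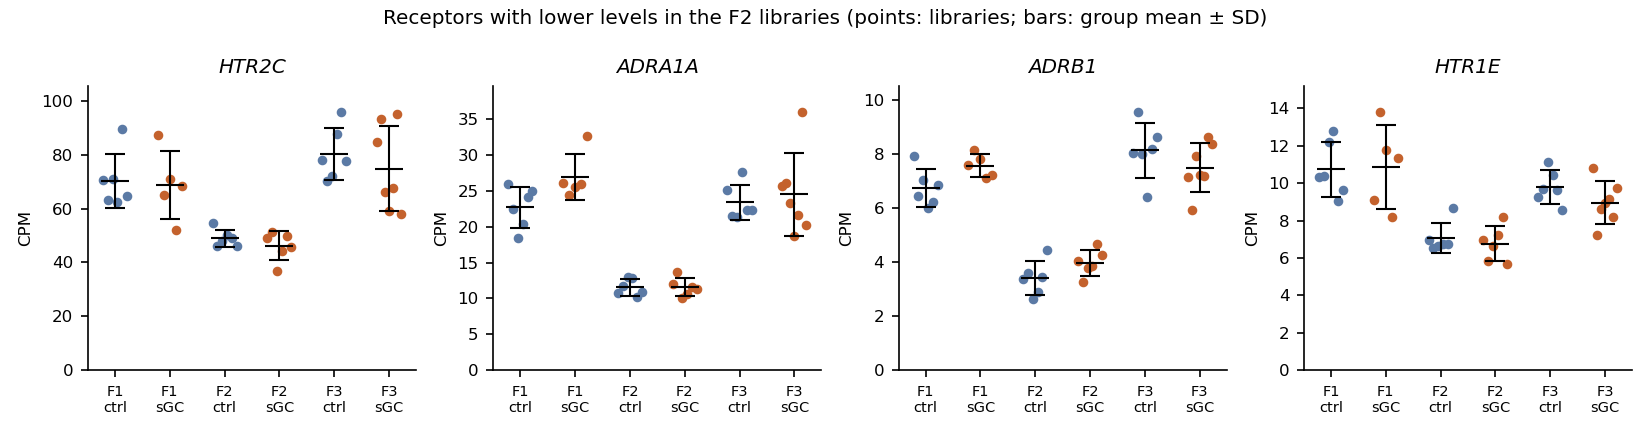
Levels of HTR2C and of 3 further receptors, ADRA1A, ADRB1 and HTR1E, in every library, in TMM-scaled CPM on axes from 0, with group means ± SD. For HTR2C, ADRA1A and ADRB1 all F2 control libraries lie below all F1 and F3 control libraries, and for HTR1E the highest F2 control, 8.68 CPM, overlaps the lowest F3 control.

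The receptors of the set varied together only in part. Over the 36 libraries, after subtraction of group means, the Gq-coupled pair HTR2A and HTR2C had r = 0.63 (rho = 0.56), with 0.51, 0.31 and 0.80 within F1, F2 and F3. HTR2C and DRD1 had r = 0.50, and HTR2A and HTR4 had r = 0.42. HTR7 varied with the CA3 markers GRIK4, CPNE4 and BOK (r = 0.51, and 0.75, 0.52 and 0.34 within F1, F2 and F3). HTR1A varied inversely with the meningeal fibroblast genes (r = -0.55, and -0.80, -0.38 and -0.36 within F1, F2 and F3). Both were picked from the correlations of every receptor with every marker list. These meningeal genes summed to 114 to 325 CPM in F1 control and 74.2 to 151 CPM in F1 sGC libraries. DCN and LUM were called lower, as were 0.457% of all genes, and the part of meningeal tissue in the HTR1A values was not tested. 

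The genes most like each receptor across libraries were named by their correlation of log2 CPM after subtraction of group means, among 11390 genes. For HTR1A they were SH3BP5 (r = 0.71), HEY1 (0.70) and MYCN (0.69). For HTR2A they were ARFGEF1 (0.75), THSD7A (0.73) and AP1G1 (0.72), and for HTR2C they were DUSP16 (0.77), SLC9A7 (0.76) and SOSTDC1 (0.75). FLRT3 (0.78), TRIM32 (0.77) and ATP8A1 (0.76) were nearest to HTR4, and GNB1L (0.70), KCNIP3 (0.68) and MAPT (0.68) to HTR7. DRD1 was nearest to CRYM (0.77), TPD52L1 (0.77) and NOV (0.76). These were the highest values among 11390 genes. The 95th percentile of r over all genes ranged from 0.350 for DRD1 to 0.473 for HTR4. Without the 2 libraries farthest in the receptor's own value, r ranged from 0.56 for GNB1L with HTR7 to 0.77 for SOSTDC1 with HTR2C.

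Beyond the set, 5 of 7 other serotonin receptors named were listed, and 0 were called. In F3, HTR3A, the subunit of the serotonin-gated ion channel found in interneurons, ranged from 1.15 to 1.64 CPM in control and 0.811 to 1.38 in sGC libraries, at -0.40 ± 0.16 (adjusted p = 0.185). HTR1E in F3 (-0.14 ± 0.09, adjusted p = 0.407) and the Gs-coupled HTR6 in F1 (-0.17 ± 0.10, adjusted p = 0.354) had the next smallest p. DRD3, a Gi-coupled dopamine receptor, was nearest to a call of all receptors measured. It ranged from 4.98 to 6.55 CPM in F3 controls and from 6.06 to 7.52 CPM in F3 sGC libraries, 7 of 7 above the control mean, at 0.24 ± 0.08 (adjusted p = 0.0849). DRD2 in F3 was at 0.17 ± 0.17 (adjusted p = 0.603), and DRD4 was in no table.

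Of 9 adrenergic receptors named, 6 were tested in each generation and 0 were called. ADRA1A in F1 was at 0.24 ± 0.09 (adjusted p = 0.177), with all 5 sGC libraries (26.1, 24.4, 25.6, 25.9 and 32.6 CPM) above the control mean of 22.7. ADRB1 in F1 was at 0.17 ± 0.09 (adjusted p = 0.296). The trace amine receptor TAAR1 was in no table.

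Genes around the receptors did pass. MAOB, the mitochondrial enzyme that breaks down dopamine and trace amines, fell in F3, where 2.87% of genes were called lower. Control libraries had 220.1 to 252 CPM and sGC libraries 188.3 to 216 CPM, without overlap (2.71% of all genes), at -0.19 ± 0.04 (adjusted p = 0.0165). In F2 MAOB ranged from 237 to 262 CPM in control and 212 to 227 CPM in sGC libraries, again without overlap (0.403% of all genes), at -0.15 ± 0.03 with an unadjusted p of 9.63e-05, which adjustment over all genes took to 0.379. In F1 it was at -0.09 ± 0.06 (adjusted p = 0.475), and the 3 effects were not shown to differ (interaction adjusted p of 0.523 or more). MAOB was the only gene called among the 7 tested for monoamine synthesis, storage, uptake and breakdown, with 0 called in F1 and F2 (1 and 3 at an unadjusted p below 0.05).

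On the Gi and Go arm, through which HTR1A acts, 1 of 3 potassium channel genes passed in F1 and another in F3. KCNJ6, which encodes the channel subunit GIRK2, rose in F1, where 1.63% of genes were called higher, from control values of 107 to 138 CPM to 161, 185, 174, 148 and 219.9 CPM in the sGC libraries, without overlap (4.41% of all genes). The log2 fold change was 0.57 ± 0.09, a ratio of 1.49 (adjusted p = 0.0082), and the adjusted p stayed below 0.05 in all 19 alternatives. In F2 and F3 KCNJ6 was at -0.02 ± 0.07 and 0.12 ± 0.11, and the interaction of F2 with F1 gave an adjusted p of 0.0556. KCNJ3, which encodes the partner subunit GIRK1, fell in F3 from 103 to 116 CPM in control to 93.9 to 102.1 CPM in sGC libraries, at -0.15 ± 0.03 (adjusted p = 0.0124). GNAI2, a Gi alpha subunit, rose in F3, where 2.17% of genes were called higher, at 0.13 ± 0.03 (adjusted p = 0.0222). Without sGC replicate 5 of F3 its adjusted p was 0.0550, and without the sGC libraries numbered 32 to 36 it was 0.0635. The third channel gene, KCNJ9, named after its values were seen, was not called and lay on the other side of 0 from KCNJ6 in F1, at -0.15 ± 0.04 (adjusted p = 0.0926). Over this arm 1 of 7 genes was called in F1, 0 in F2 and 2 in F3, beside 2.08%, 0.0% and 5.04% of all genes.

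On the Gq arm of HTR2A and HTR2C, 1 of 11 genes was called in F1, 0 of 10 in F2 and 1 of 11 in F3, both higher in sGC (1.63% and 2.17% of all genes were called higher in F1 and F3). GNAQ, the Gq alpha subunit, rose in F1 from 51.5 to 61.9 CPM in control to 66.2 to 75.8 CPM in sGC libraries, without overlap, at 0.32 ± 0.06 (adjusted p = 0.0181). It was at -0.02 ± 0.04 in F2, and the F2 effect minus the F1 effect, -0.35 ± 0.07, passed the interaction test (adjusted p = 0.0270). Leaving out F2 control 2, F2 control 4, F2 sGC 4 or F2 sGC 5 took that adjusted p to 0.0656, 0.0551, 0.0551 and 0.0542. The F3 effect minus the F1 effect was -0.29 ± 0.07 (adjusted p = 0.0724). PLCB3, a phospholipase C that Gq activates, rose in F3 from 31.5 to 35.7 CPM in control to 37.1 to 42.4 CPM in sGC libraries, without overlap, at 0.22 ± 0.04 (adjusted p = 0.0090, or 0.133 in a fit over all 36 libraries).

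On the Gs and cAMP arm of HTR4, HTR7 and DRD1, 1 of 16 genes was called in F1, 0 in F2 and 1 in F3, beside 2.08%, 0.0% and 5.04% of all genes. PRKAR1B, a regulatory subunit of the cAMP-dependent kinase, fell in F3 from 616 to 636 CPM in control to 512 to 588 CPM in sGC libraries, without overlap, at -0.17 ± 0.03 (adjusted p = 0.0090), and it stayed called in all 21 alternatives. CREB1, the transcription factor that this kinase activates, rose in F1 from 17.4 to 21.6 CPM in control to 21.4 to 25.9 CPM in sGC libraries, at 0.28 ± 0.07. Its adjusted p of 0.0494 was close to the threshold and rose above it, to at most 0.103, when any of 9 of the 11 libraries was left out. Over all alternatives it reached 0.105.

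Among the kinases, arrestins and scaffolds that desensitize or bind these receptors, 1 of 11 genes was called in F1, 0 in F2 and 3 in F3, all higher in sGC, beside 1.63% of all genes called higher in F1 and 2.17% in F3. ARRB1, which encodes beta-arrestin 1, rose in F3 from 353 to 372 CPM in control to 383 to 417 CPM in sGC libraries, without overlap, at 0.12 ± 0.03 (adjusted p = 0.0166, or 0.208 in the fit over all 36 libraries). GRK5, a receptor kinase, rose in F3 at 0.18 ± 0.05 (adjusted p = 0.0350), and leaving out any of 9 of the 13 libraries ended the call, with an adjusted p of up to 0.0822. DLG4, which encodes the scaffold PSD-95, rose in F3 at 0.14 ± 0.04 (adjusted p = 0.0470), and 12 of the 13 libraries ended that call when left out, up to 0.104. GRK3, a related kinase, rose in F1 at 0.19 ± 0.04 (adjusted p = 0.0494), and leaving out any of its 11 libraries ended the call, up to 0.108. Over all alternatives the adjusted p reached 0.116 for GRK3, 0.131 for GRK5 and 0.127 for DLG4. The 0 calls in F2 over these lists stand beside 2 genes of the Gs arm, 1 of the Gq arm and 1 of the desensitization list at an unadjusted p below 0.05.

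**Figure D5:**
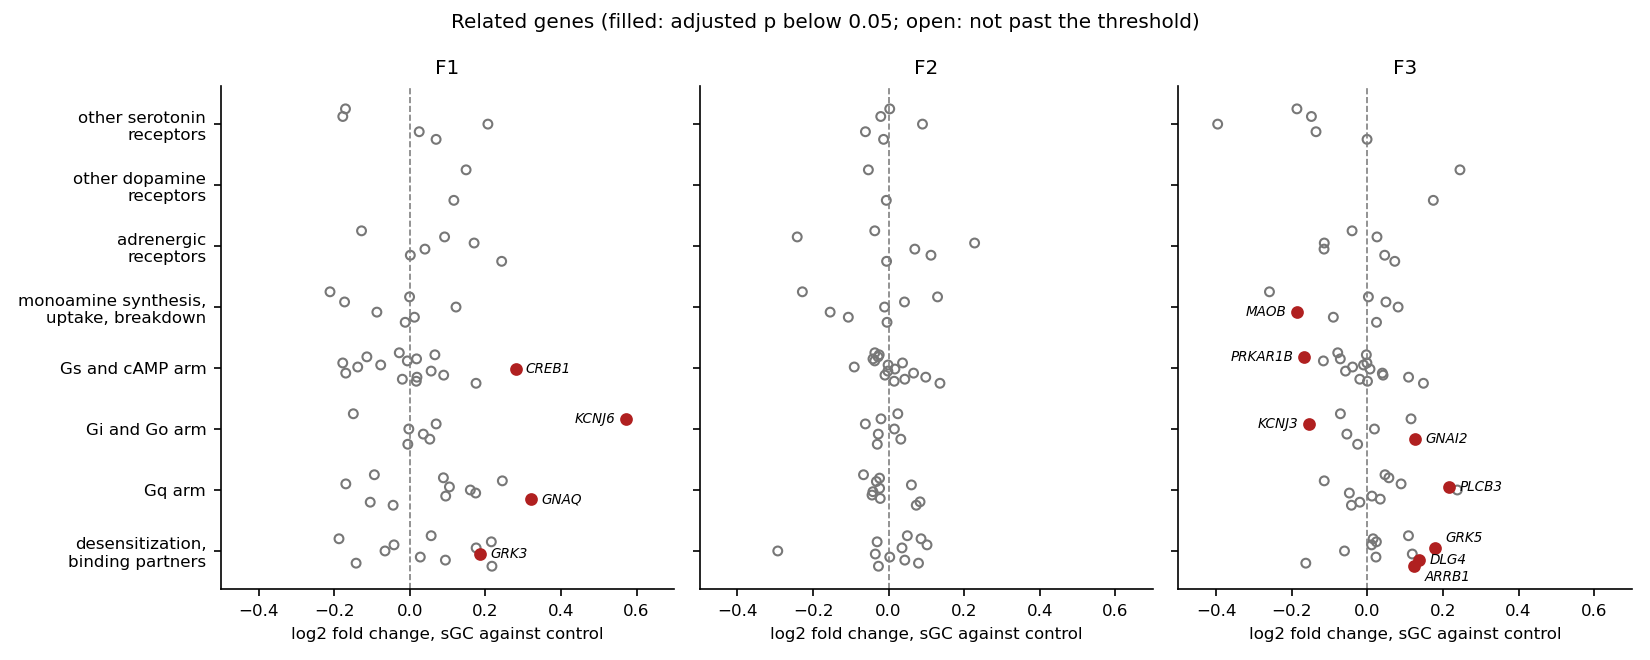
Log2 fold change of sGC against control for each gene of 8 lists around the receptors, in F1, F2 and F3. Filled red points passed an adjusted p of 0.05 and are named (4 in F1, 0 in F2 and 8 in F3), and open points did not; no point in the 3 receptor rows is filled.

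Other cell type lists were measured beside these results. In F1, 2 of 8 meningeal and 1 of 8 striatal genes were called lower, beside 0.457% of all genes. There 1 of 6 thalamic genes, RORA, was called higher, beside 1.63%. In F3, 2 of 6 interneuron genes were called lower, beside 2.87% of all genes. In that generation 1 of 5 astrocyte genes and 1 of 6 thalamic genes, LEF1, were called higher, beside 2.17%. None of the dentate granule, CA1, CA3, choroid plexus, endothelial, oligodendrocyte and microglial genes tested was called in any generation, and in F2 no gene of any list was called. Some lists were short. Of 10 choroid plexus genes named, 2 were tested in F1, 5 in F2 and 4 in F3. Of 4 oligodendrocyte genes named, 2 were tested in F1, 3 in F2 and 2 in F3, and MBP was not listed in any generation.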

How the data were processed

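RNA was read from 36 hippocampal libraries, prepared with a TruSeq poly(A) kit and sequenced as 51 base reads. The authors aligned reads with TopHat2 and deposited 1 table per generation of unnormalized counts, 1 column a library. The smallest row total was 43 reads, so genes with fewer reads are not listed. Deposited columns with the authors' edgeR fold changes, p-values and FDR, and methylation tables that hold only the authors' comparisons, were not used. Groups came from the sample labels.

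Fits ran in R 4.3.3 (DESeq2 1.42.0; limma 3.58.1; edgeR 4.0.16), and tables and plots with Python 3.11.15, numpy 2.4.6, pandas 2.3.3, scipy 1.17.1 and matplotlib 3.10.9. Genes were kept by filterByExpr (minimum count 10, minimum total 15), scaled by TMM, and compared within generations by glmQLFit and glmQLFTest with Benjamini-Hochberg adjustment at 0.05. Interactions were fitted over all libraries. CPM are per 1000000 reads, and correlations used log2 CPM with a prior count of 2. The fits were tested on simulated counts. Alternatives were a likelihood ratio test, DESeq2, RLE factors, library totals, no filter, all libraries in 1 fit, the replicate number as a block, and leaving out single libraries or the sGC libraries numbered 32 to 36.

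The 9 receptors and all lists were chosen with earlier results of these data known. Genes named beside them were those past the threshold in each list, or otherwise up to 3 with the smallest p, and the 3 genes most correlated with each receptor tested in every generation. Libraries of a group differed by more than sampling noise (chi-square per degree of freedom 2.10 to 28.7 over 91 pairs), which does not show that they are independent. Each library was counted as 1 replicate, and the paper states that all females came from independent mothers. The label numbers were not taken to pair animals: the correlation of same-numbered libraries lay between -0.292 and 0.292 over 17 pairs, with 3 above 0.1. Libraries with different numbers were not compared, so these values cannot tell whether same-numbered libraries share a litter or batch. One gene that the naming rule picks is not reported here. Gene coordinates, transcript lengths and sequences were not used here.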

Additional observations from a re-analysis of the deposited data

Results flagged for a closer look

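HTR2C in replicate 5 of the F1 controls had 89.5 CPM from 1726 reads, while the other 5 F1 controls had 62.6 to 70.8 CPM. It was the highest of its group by a gap of 0.694 of the group's range, above Dixon's 95% critical value of 0.625 for 6 libraries. Over 42 groups of values tested for the receptors it was the only library so far from its group, and chance puts about 1 in 20 groups past this value. The same library had the most reads of the choroid plexus genes FOLR1 (13.1 CPM, with 5.78 to 9.00 in the other F1 controls) and KL (28.8 CPM, with 13.55 to 16.1), and the part of these cells in its HTR2C value was not tested. The F1 sGC library with 87.1 CPM of HTR2C had 5.32 CPM of FOLR1 and 14.6 CPM of KL, both within the range of its group.

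The sGC effect on GNAQ, the Gq alpha subunit, differed between F2 and F1 by the interaction test of edgeR, at -0.35 on the log2 scale (adjusted p = 0.0270): its level was higher in all 5 F1 sGC libraries than in any F1 control and overlapped in F2.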

How the results depend on the processing

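No receptor was called under any alternative, within generations or between them. The share of genes called in F1, 2.08%, became 7.48% with all 36 libraries in 1 fit, 5.26% by the likelihood ratio test, 5.60% with DESeq2, 0.598% with the replicate block, 0.845% without the sGC libraries numbered 32 to 36, and 0.490% to 2.995% without single libraries. In F2 it was 0.0526% by the likelihood ratio test, 0.102% with DESeq2 and 0.0% to 0.00875% without single libraries. In F3, 5.04% became 2.93% with all libraries, 8.09% with DESeq2, 1.51% with the block, 2.79% without libraries 32 to 36, and 2.54% to 5.63% without single libraries. The label numbers were not taken to pair animals in the main fits. With the replicate number as a block the adjusted p of 9 pathway genes rose above 0.05: CREB1 (0.105), GNAQ (0.0762) and GRK3 (0.111) in F1, and MAOB (0.0626), GNAI2 (0.0955), KCNJ3 (0.0546), GRK5 (0.131), ARRB1 (0.117) and DLG4 (0.127) in F3. Of the receptors and the pathway genes named, the block changed no other call. Cell type markers were not refitted under the alternatives.

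Some receptor estimates near 0 changed sign. Without libraries 32 to 36 these were HTR2C in F1 (0.0811), DRD1 in F2 (-0.0026), HTR1D between F3 and F1 (-0.218) and HTR2A between F3 and F2 (-0.0551), and with the replicate block HTR2C between F3 and F2 (0.0373). Without single libraries, HTR2A ranged from -0.0109 to 0.0754 and HTR2C from -0.130 to 0.0555 in F1, and HTR1A from -0.0430 to 0.0218, HTR7 from -0.0159 to 0.0665 and DRD1 from -0.0425 to 0.0570 in F2. Between F2 and F1, HTR2C ranged from -0.144 to 0.0375 and HTR4 from -0.0760 to 0.0062. Between F3 and F1, HTR1D ranged from -0.0144 to 0.539, HTR2C from -0.159 to 0.0225 and DRD1 from -0.0524 to 0.159. Between F3 and F2, HTR2A ranged from -0.0622 to 0.0389 and HTR2C from -0.0824 to 0.0445. The causes were not tested. HTR1D has no value in fits whose filter removed it, and its 1 to 15 reads per library limit what can be seen of it. All libraries numbered 32 to 36 are sGC.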
